A study of Mus musculus with 36 samples.

Results

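The proteasome genes were the 48 symbols of the deposited expression table, out of 54735, that begin with Psm, carry a family letter from a to g and end in a number. They cover the core particle, the regulatory particle, activators, an inhibitor and assembly chaperones. Their RNA was measured by stranded sequencing of total RNA from mouse embryonic fibroblasts (MEFs, adherent cells grown from embryos) of 3 genotypes: a line lacking the kinase PERK, a line lacking the kinase GCN2, and a wild-type (WT) line. Each line was starved for 6 h in RPMI medium without lysine and arginine, left untreated in full RPMI medium with serum, exposed for 6 h to 200 nM thapsigargin, a blocker of the calcium pump of the endoplasmic reticulum, or given the solvent DMSO. The study asked which RNAs are induced through PERK or through GCN2 and not through the other kinases of the integrated stress response. Each of the 12 groups held 3 libraries, 36 in all, and the labels call these technical replicates. Since the labels name a single line for each genotype, an effect of the genotype and one of the line cannot be told apart, and p-values reflect the spread among technical replicates alone. No label names the control of either stress. Starvation was set against untreated cells and thapsigargin against DMSO.

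The proteasome is the protease complex that degrades proteins tagged with ubiquitin. Its core particle stacks rings of alpha subunits (Psma genes) around rings of beta subunits (Psmb genes), of which Psmb6, Psmb7 and Psmb5 encode the catalytic ones. Interferon induces Psmb9, Psmb10 and Psmb8, which replace these catalytic subunits in the immunoproteasome and favour peptides fit for MHC class I presentation. The regulatory particle unfolds substrates with a ring of ATPases (Psmc genes) and captures and deubiquitinates them with non-ATPase subunits (Psmd genes). Psme1 and Psme2 encode the interferon-inducible PA28 activator, Psme3 its nuclear relative PA28 gamma, Psme4 the activator PA200, and Psmf1 the inhibitor PI31. Psmg1 to Psmg4 encode chaperones of core assembly, and Psmd5, Psmd9 and Psmd10 chaperones of the base of the regulatory particle. When proteasome activity is lost, the transcription factor NRF1 (Nfe2l1) raises the subunit genes through antioxidant response elements.

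The kinase genes matched their labels in part. Eif2ak3, which encodes PERK, had 4.58, 4.205 and 3.87 TPM (a transcript level scaled for transcript length and to a fixed library total) in untreated PERK-deletion libraries and 7.52, 7.46 and 5.97 TPM in untreated WT libraries. Eif2ak4, which encodes GCN2, had 4.54, 5.52 and 5.69 TPM in untreated GCN2-deletion libraries and 28.1, 25.2 and 20.5 TPM in untreated WT libraries. Residual signal remained in both, and the deleted part of each gene is not given in the sources used here. Among fibroblast markers, Vim had 1394 to 3184 TPM, while Col1a1 had 15.1 ± 0.772 TPM in PERK-deletion, 1348 ± 53.5 TPM in GCN2-deletion and 1058 ± 235 TPM in WT untreated cells (mean ± SD, n = 3 each). The fibroblast markers Dcn, Lum and Fap were near 0, with 2.78, 0.0348 and 1.203 TPM at most. Leukocyte markers summed to 3.33 to 10.8 TPM per library, most of it from Cd68, and the leukocyte-defining Ptprc reached at most 0.198 TPM. WT untreated replicate 1 had the lowest mean correlation with its own group (0.964) and the highest mitochondrial share (9.49% of TPM). Other libraries also stood apart from their groups. PERK-deletion starved replicate 1 had a mitochondrial share of 4.33%, against 7.80% and 7.97% in replicates 2 and 3. In GCN2-deletion DMSO replicate 1, Mir (microRNA) genes took 2.81% of TPM, against 0.764% and 0.879% in replicates 2 and 3. Read depth is unknown for TPM tables, so no counting interval could be given.

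Together the 48 genes took 0.709 to 0.978% of all TPM in a library, or 7089 to 9776 TPM. Summed levels differed by role. The core beta genes summed to 1867 to 3023 TPM, the non-ATPase genes to 1971 to 2456 TPM, the alpha genes to 1309 to 1957 TPM and the ATPase genes to 1178 to 1625 TPM. The ranges of the beta and non-ATPase genes overlap, as do those of the beta and alpha genes and of the alpha and ATPase genes. The activators summed to 289 to 494 TPM, the core chaperones to 171 to 245 TPM and the base chaperones to 133 to 199 TPM. Psmb6, the catalytic subunit with caspase-like activity, was the highest single gene, with a mean of 471 TPM over 36 libraries (336 to 626). The trypsin-like subunit Psmb7 averaged 342 TPM and the chymotrypsin-like subunit Psmb5 264 TPM. Among the alpha genes Psma7 was highest (mean 398 TPM) and Psma2 lowest (127 TPM). Among the ATPases Psmc3 was highest (302 TPM) and Psmc4 lowest (167 TPM). Psmd2, a scaffold of the base, led the non-ATPase genes with 356 TPM, and Psmd13 was lowest there with 118 TPM. The base chaperone Psmd10, gankyrin, was the lowest of the constitutive genes at 24.1 TPM.

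The interferon-inducible catalytic genes were far below their constitutive counterparts. Psmb8 averaged 2.899 TPM (0.342 to 5.66), against 264 TPM for Psmb5, which it replaces. Psmb9 averaged 0.811 TPM and was listed at 0 in 3 libraries, against 471 TPM for Psmb6. Psmb10 averaged 50.4 TPM, against 342 TPM for Psmb7. The thymus form Psmb11 reached at most 0.843 TPM, and the testis form Psma8 was listed at 0 in 29 of 36 libraries with at most 0.279 TPM. Both missed the filter of at least 1 TPM in at least 3 libraries. The other 46 genes passed it and were tested among 16083 genes. Apart from Psmb8 and Psmb9, the lowest level of any of them in a library was 14.99 TPM, for Psmd10, so the filter did not depend on a group. The median residual SD on the log2 scale was 0.083 for the 46 genes and 0.150 for all genes tested. These sets were not matched for level, since 44 of the 46 averaged 20 TPM or more. Whether the smaller spread goes beyond that of other genes at such levels was not tested. Of possible gene copies, only Psme2b and pseudogenes with Psmb symbols were looked up, and sequence identity was not computed. Psme2b had 0 to 2.33 TPM, and those Psmb pseudogenes had at most 0.598 TPM. Copies under other symbols were not searched.

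**Figure D1:**
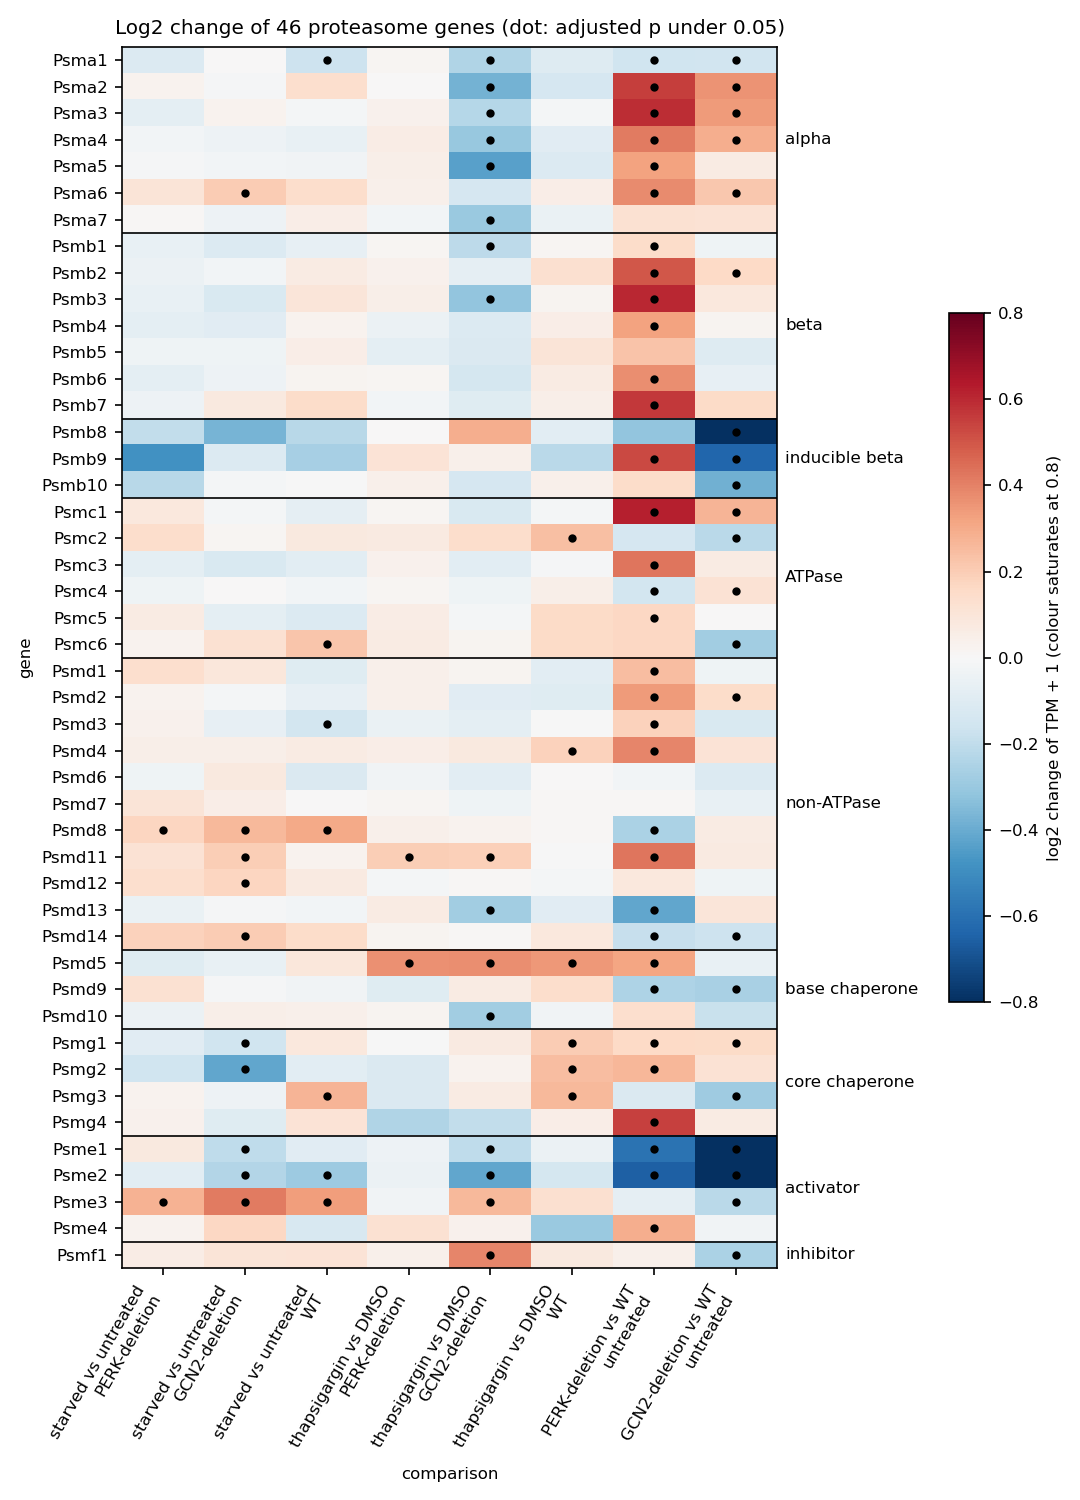
Log2 change of TPM + 1 for the 46 tested proteasome genes (rows, grouped by role) in 8 comparisons (columns), with a dot where limma's adjusted p was under 0.05. Colour is sparse in the 6 stress columns apart from the alpha genes with thapsigargin in the GCN2-deletion line, and is strongest in the line columns at the right.

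Amino acid starvation left most proteasome RNAs within a narrow range. A gene is said here to have risen or fallen where limma's adjusted p, over all 16083 genes, was under 0.05; changes are on the scale log2(TPM + 1). In the PERK-deletion line 2 of 46 genes rose and 0 fell, while 5.75% of all genes tested rose and 6.39% fell. In the GCN2-deletion line 6 rose and 4 fell, against 11.7% and 12.2% of all genes. In the WT line 4 rose and 3 fell, against 12.5% and 17.4%. These counts are at or below the background in each line, except that the 6 that rose in the GCN2-deletion line (13% of 46) lie close to it. The median change of the 46 genes was 0.001 in PERK-deletion, -0.014 in GCN2-deletion and 0.013 in WT cells, while that of all genes was -0.017, -0.001 and -0.047. Among the constitutive genes that were not called, 95% intervals ran from -0.31 to 0.33 in PERK-deletion, -0.30 to 0.40 in GCN2-deletion and -0.36 to 0.32 in WT cells, so changes of 2-fold are outside all of them. Rescaling the libraries by the median of gene ratios gave 4 higher and 1 lower in GCN2-deletion (14.4% and 13.9% of all genes) and 6 higher and 0 lower in WT cells (16.4% and 16.5%). The WT counts depend on the control: against DMSO 3 rose and 7 fell, with 13.6% and 11.6% of all genes. The WT medians were then -0.078 for the 46 genes and 0.007 for all genes. In bulk RNA, fewer cells with a transcript and less of it per cell cannot be told apart.

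Both genes called higher after starvation of PERK-deletion cells also rose in the other lines: the PA28 gamma gene Psme3 and the lid subunit gene Psmd8. Psme3 had 179, 155 and 159 TPM in starved PERK-deletion cells, against 148, 139.8 and 119 TPM in untreated ones. In the GCN2-deletion line it had 161, 169 and 161 TPM starved, against 125, 119 and 122 TPM untreated. In the WT line it had 187, 172 and 178 TPM starved, against 137, 158 and 132 TPM untreated. The starved libraries lay above the untreated ones in every line without overlap. The log2 change of Psme3 was 0.28 ± 0.069 (SE) in PERK-deletion (adjusted p = 0.00708), 0.42 ± 0.069 in GCN2-deletion (adjusted p = 4.92e-05) and 0.33 ± 0.069 in WT cells (adjusted p = 4.66e-04). In the PERK-deletion line the call was lost when PERK-deletion starved replicate 1 or PERK-deletion untreated replicate 3 was left out (highest adjusted p = 0.0722). The PERK-deletion call of Psme3 was kept against DMSO in place of untreated cells, but lost when the compared groups were fitted alone. The WT call was also lost in such a fit (adjusted p = 0.0551). Neither response of Psme3 in a deletion line differed detectably from WT. The differences were -0.053 (95% interval -0.25 to 0.15) for PERK-deletion and 0.086 (-0.11 to 0.29) for GCN2-deletion.

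Psmd8 had 192, 176 and 173 TPM in starved and 157, 165 and 158 TPM in untreated PERK-deletion cells. It had 235, 237 and 245 TPM in starved and 201, 209 and 189 TPM in untreated GCN2-deletion cells. In WT cells Psmd8 had 233, 237 and 238 TPM starved and 173, 199 and 201 TPM untreated. Again no starved library overlapped its untreated group. The log2 changes were 0.17 ± 0.048 (SE, adjusted p = 0.0179) in PERK-deletion, 0.26 ± 0.048 (adjusted p = 2.29e-04) in GCN2-deletion and 0.31 ± 0.048 (adjusted p = 1.46e-05) in WT cells. The PERK-deletion call was lost when PERK-deletion starved replicate 1, PERK-deletion untreated replicate 1 or PERK-deletion untreated replicate 3 was left out (highest adjusted p = 0.127), and on rescaling (adjusted p = 0.143). The PERK-deletion call of Psmd8 was also lost against DMSO in place of untreated cells, and when the compared groups were fitted alone. Thapsigargin did not raise Psmd8 in WT cells, where it had 209.9 ± 0.931 TPM with thapsigargin and 208 ± 7.69 TPM with DMSO. The starvation response exceeded the thapsigargin response there by 0.29 ± 0.068 on the log2 scale (adjusted p = 0.00396), which was the 1 gene of 46 called higher in that comparison, against 5.77% of all genes. That difference kept its sign on rescaling with an adjusted p of 0.0948. Against the other control of each stress, 0 of 46 genes were called higher and 12 lower, with 15.1% and 6.39% of all genes. The Psmd8 difference was thus not called higher with those controls.

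**Figure D2:**
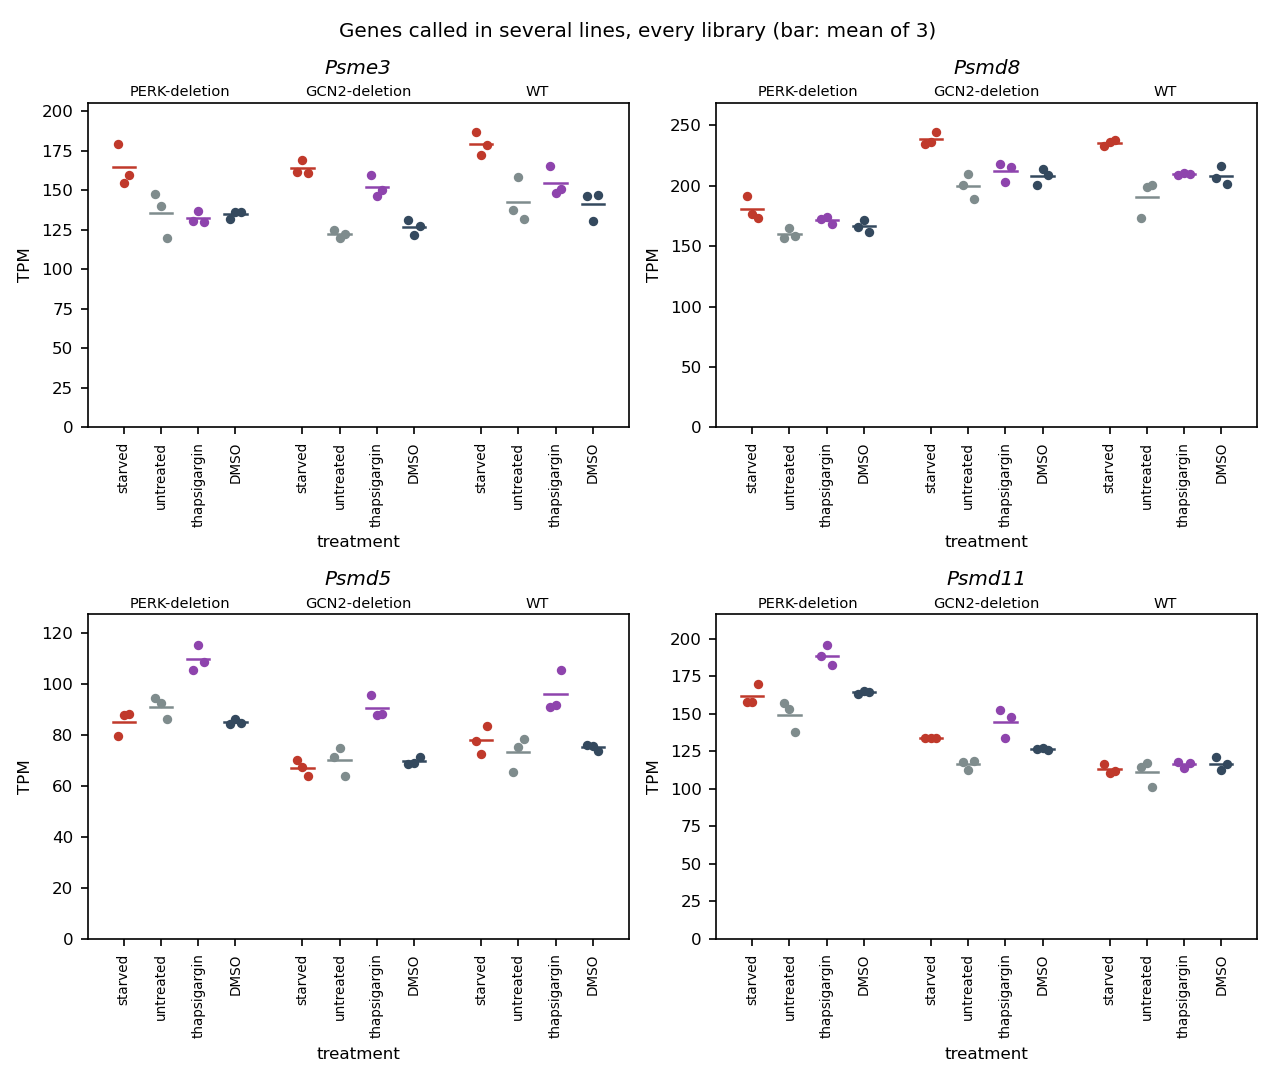
TPM of Psme3, Psmd8, Psmd5 and Psmd11 in each of the 36 libraries (points), by line and treatment, with a bar at the mean of 3. Starved libraries of Psme3 and Psmd8 sit above the untreated ones in all 3 lines, and thapsigargin libraries of Psmd5 sit above the DMSO ones in all 3 lines.

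The other starvation calls were made in the WT or the GCN2-deletion line. In the WT line Psmg3, a core chaperone, rose by 0.27 (adjusted p = 0.0159) although its groups overlapped, and the ATPase Psmc6 rose by 0.22 (adjusted p = 0.0335). The Psmg3 call was lost when WT starved replicate 2, WT starved replicate 3 or WT untreated replicate 1 was left out (highest adjusted p = 0.191), and the Psmc6 call when WT starved replicate 1, WT starved replicate 3 or WT untreated replicate 3 was left out (highest adjusted p = 0.245). Psme2 fell in the WT line, with 145, 141 and 142 TPM starved and 175, 157 and 192 TPM untreated (log2 change -0.29 ± 0.076 (SE), adjusted p = 0.00406). Psma1 and Psmd3 were called lower there by -0.17 and -0.15. On rescaling the adjusted p was 0.0745 for Psme2, 0.2196 for Psma1 and 0.293 for Psmd3. The Psma1 call was also lost when WT starved replicate 3 was left out (adjusted p = 0.05003) and the Psmd3 call when WT starved replicate 1, WT starved replicate 3 or WT untreated replicate 3 was left out (highest adjusted p = 0.156).

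In the GCN2-deletion line the core chaperone Psmg2 had 36.6, 36.3 and 36.8 TPM in starved cells, against 48.2, 51.4 and 47.5 TPM in untreated cells. Its fall there (log2 change -0.41 ± 0.071 (SE), adjusted p = 7.96e-05) held under every alternative run. In WT cells Psmg2 had 44.4, 41.5 and 41.8 TPM starved and 48.5, 43.8 and 43.4 TPM untreated, which overlap. The response of Psmg2 was lower in GCN2-deletion than in WT cells by -0.33 ± 0.10 (SE, adjusted p = 0.0411), and that of its partner in the PAC1-PAC2 dimer, Psmg1, by -0.24 ± 0.076 (adjusted p = 0.0479). These were the 2 of 46 genes called lower in that comparison, against 4.17% of all genes, and 0 were called higher, against 3.69%. Both calls sat near the threshold. That of Psmg2 was lost when GCN2-deletion starved replicate 1, GCN2-deletion starved replicate 2, GCN2-deletion starved replicate 3, GCN2-deletion untreated replicate 1, GCN2-deletion untreated replicate 2, WT starved replicate 1, WT starved replicate 2, WT starved replicate 3, WT untreated replicate 2 or WT untreated replicate 3 was left out (highest adjusted p = 0.115), and that of Psmg1 when GCN2-deletion starved replicate 1, GCN2-deletion starved replicate 2, GCN2-deletion untreated replicate 1, GCN2-deletion untreated replicate 2, WT starved replicate 1, WT starved replicate 2, WT starved replicate 3 or WT untreated replicate 1 was left out (highest adjusted p = 0.159); Psmg1 also missed it on rescaling (adjusted p = 0.0985). For the PERK-deletion line against WT, limma called 0 of 46 responses to starvation different in either direction (5.58% higher and 5.34% lower of all genes), with 4 of the 46 at an unadjusted p under 0.05.

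In starved cells of the GCN2-deletion line Psmd11, Psmd12 and Psmd14, all non-ATPase subunits, rose by 0.20, 0.17 and 0.20, and the alpha gene Psma6 by 0.20. Psmd14 encodes the deubiquitinase of the lid; it had 185, 202 and 179 TPM starved and 165, 165 and 161 TPM untreated in GCN2-deletion cells (adjusted p = 0.03098). Its call was lost when GCN2-deletion starved replicate 1, GCN2-deletion starved replicate 2, GCN2-deletion untreated replicate 1, GCN2-deletion untreated replicate 2 or GCN2-deletion untreated replicate 3 was left out (highest adjusted p = 0.175). Psmd11 held when each library was left out (adjusted p at most 0.0382), whereas Psmd12 was lost when GCN2-deletion starved replicate 1, GCN2-deletion starved replicate 2, GCN2-deletion untreated replicate 2 or GCN2-deletion untreated replicate 3 was left out (highest adjusted p = 0.0743) and Psma6 when GCN2-deletion starved replicate 2 or GCN2-deletion untreated replicate 3 was left out (highest adjusted p = 0.104). The PA28 genes were also called lower in starved GCN2-deletion cells, Psme2 by -0.23 (adjusted p = 0.0238) and Psme1 by -0.20 (adjusted p = 0.0492), as was Psmg1 by -0.16. On rescaling these had adjusted p = 0.0838, 0.123 and 0.126. The Psme2 call was lost when GCN2-deletion starved replicate 3, GCN2-deletion untreated replicate 2 or GCN2-deletion untreated replicate 3 was left out (highest adjusted p = 0.134), the Psme1 call when GCN2-deletion starved replicate 2, GCN2-deletion starved replicate 3, GCN2-deletion untreated replicate 1 or GCN2-deletion untreated replicate 2 was left out (highest adjusted p = 0.2304), and the Psmg1 call when GCN2-deletion starved replicate 1, GCN2-deletion starved replicate 2, GCN2-deletion untreated replicate 1 or GCN2-deletion untreated replicate 2 was left out (highest adjusted p = 0.173). Against DMSO in place of untreated cells, none of the 4 higher calls of this paragraph and none of its 3 lower calls were made.

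Set against DMSO, thapsigargin gave few calls in 2 of the 3 lines, though the shares that rose were not below those of all genes. In the PERK-deletion line 2 of 46 (4.35%) rose and 0 fell, against 2.5% and 2.8% of all genes. In the WT line 6 (13%) rose and 0 fell, against 11.4% and 14.8% of all genes. The WT count depends on the control: against untreated cells 13 rose and 1 fell, with 12.2% and 25.1% of all genes. The medians were then 0.094 for the 46 genes and -0.115 for all genes. In the GCN2-deletion line 4 rose and 12 fell, which is 8.7% and 26.1% of the 46, against 25.4% and 11.3% of all genes. The median change was 0.019 in PERK-deletion, -0.08 in GCN2-deletion and 0.015 in WT cells for the 46 genes, and -0.038, 0.078 and -0.043 for all genes. Rescaling, which lowers the all-gene median in the GCN2-deletion line to -0.021, gave 2 higher and 18 lower of 46 there, with 18.7% and 20.1% of all genes, and 7 higher and 1 lower in the WT line, with 15.2% and 14.8%.

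Psmd5, which encodes the base chaperone S5b, rose with thapsigargin in all 3 lines. It had 105, 115 and 109 TPM with thapsigargin, against 84.1, 86.2 and 84.5 TPM with DMSO, in PERK-deletion cells. In GCN2-deletion cells it had 95.5, 87.8 and 88.2 TPM with thapsigargin, against 68.7, 68.8 and 71.4 TPM with DMSO. In WT cells it had 90.8, 91.7 and 105 TPM with thapsigargin, against 75.9, 75.4 and 73.7 TPM with DMSO. The groups did not overlap in any line. The log2 change was 0.36 ± 0.067 (SE, adjusted p = 5.97e-04) in PERK-deletion, 0.37 ± 0.067 (adjusted p = 6.98e-05) in GCN2-deletion and 0.35 ± 0.067 (adjusted p = 2.35e-04) in WT cells, and all 3 calls held under each alternative and without each library. The responses differed from WT by 0.017 (95% interval -0.18 to 0.21) in PERK-deletion and by 0.026 (-0.17 to 0.22) in GCN2-deletion cells. Starvation gave Psmd5 77.8 ± 5.44 TPM in WT cells, against 73.1 ± 6.69 TPM untreated, and no call in any line.

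Psmd11, a lid subunit gene, rose in both deletion lines. It had 188, 196 and 182 TPM with thapsigargin and 164, 165 and 165 TPM with DMSO in PERK-deletion cells (log2 change 0.20 ± 0.052 (SE), adjusted p = 0.0202), a call that was lost when PERK-deletion thapsigargin replicate 1, PERK-deletion thapsigargin replicate 2, PERK-deletion DMSO replicate 1, PERK-deletion DMSO replicate 2 or PERK-deletion DMSO replicate 3 was left out (highest adjusted p = 0.125). In GCN2-deletion cells it had 153, 134 and 148 TPM with thapsigargin and 126, 127 and 126 TPM with DMSO (log2 change 0.19 ± 0.052 (SE), adjusted p = 0.00453), but on rescaling the change was 0.048 (adjusted p = 0.316). In WT cells it was 116 ± 2.03 TPM with thapsigargin and 117 ± 4.32 TPM with DMSO. The WT line instead had calls for 3 core chaperones, Psmg1, Psmg2 and Psmg3, with changes of 0.21, 0.25 and 0.26, for the ATPase Psmc2 (0.24) and for the ubiquitin receptor Psmd4 (0.19). Psmc2 had 259, 268 and 284 TPM with thapsigargin and 219, 231 and 235 TPM with DMSO in WT cells (adjusted p = 0.00181), and this call held throughout. The Psmg2 call was lost when WT thapsigargin replicate 3 or WT DMSO replicate 1 was left out (highest adjusted p = 0.0871), the Psmg3 call when WT thapsigargin replicate 2, WT thapsigargin replicate 3, WT DMSO replicate 1 or WT DMSO replicate 3 was left out (highest adjusted p = 0.0935) and the Psmd4 call when WT thapsigargin replicate 2, WT thapsigargin replicate 3 or WT DMSO replicate 1 was left out (highest adjusted p = 0.0779).

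Core alpha genes were the most frequent fallen group in thapsigargin-treated GCN2-deletion cells. Of the 7 alpha genes 6 fell, with a median change of -0.30 over the 7, while 11.3% of all genes fell. The largest fall was that of Psma5, with 158, 143 and 152 TPM with thapsigargin, against 178, 221 and 218 TPM with DMSO (log2 change -0.44 ± 0.075 (SE), adjusted p = 4.09e-05). Psma2 had 96.3, 100.2 and 94.3 TPM with thapsigargin, against 109, 137 and 135 TPM with DMSO (log2 change -0.38 ± 0.091 (SE), adjusted p = 0.00167). Psma4 had 197, 178 and 196 TPM with thapsigargin, against 221, 246 and 240.1 TPM with DMSO (log2 change -0.31 ± 0.069 (SE), adjusted p = 8.28e-04). None of these groups overlapped. Psma7, Psma1 and Psma3 were called lower by smaller amounts (-0.30, -0.24 and -0.23), and Psma6 had -0.13. In the same libraries 5 endothelium markers summed to 5.15 to 6.84 TPM with thapsigargin and 2.198 to 3.89 TPM with DMSO without overlap; Pecam1 and Kdr were called higher, Emcn was at 0 throughout, and Tek and Cdh5 were at most 0.439 TPM. The mitochondrial share was 4.27 to 5.78% of TPM with thapsigargin and 6.39 to 7.29% with DMSO. The part of either in the falls was not tested. Of the 7 constitutive beta genes Psmb3 fell by 0.31 (adjusted p = 0.00713) and Psmb1 by 0.21 (adjusted p = 0.00686), and the Psmb1 call was lost when GCN2-deletion thapsigargin replicate 2 or GCN2-deletion DMSO replicate 3 was left out (highest adjusted p = 0.0579). The catalytic genes Psmb5, Psmb6 and Psmb7 had -0.12, -0.14 and -0.099 with no call. All 6 ATPase genes were uncalled there, between -0.12 for Psmc1 and 0.14 for Psmc2, as were 9 of the 11 non-ATPase genes. Psmd13, the exception on the lower side, fell by 0.28 (adjusted p = 0.00483), and the base chaperone Psmd10 by 0.28 (adjusted p = 0.00753), a call lost when GCN2-deletion thapsigargin replicate 2 or GCN2-deletion DMSO replicate 2 was left out (highest adjusted p = 0.0675).

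The PA28 genes fell as well. Psme2 had 58.1, 51.9 and 50.97 TPM with thapsigargin, against 65.9, 73.5 and 76.7 TPM with DMSO, in GCN2-deletion cells (log2 change -0.42 ± 0.076 (SE), adjusted p = 6.96e-05). Psme1 had 49.9, 45.3 and 49.99 TPM with thapsigargin, against 56.0, 58.2 and 53.6 TPM with DMSO (log2 change -0.21 ± 0.076 (SE), adjusted p = 0.0341), a call lost when GCN2-deletion thapsigargin replicate 2, GCN2-deletion DMSO replicate 1 or GCN2-deletion DMSO replicate 2 was left out (highest adjusted p = 0.1502). In contrast Psme3 rose to 159, 146 and 150.3 TPM with thapsigargin, against 131, 122 and 127 TPM with DMSO (log2 change 0.26 ± 0.069 (SE), adjusted p = 0.00387), although on rescaling it had 0.12 (adjusted p = 0.125). The inhibitor gene Psmf1 rose to 47.97, 41.6 and 45.9 TPM, against 32.2, 35.4 and 34.8 TPM with DMSO (log2 change 0.39 ± 0.059 (SE), adjusted p = 5.04e-06), and remained called on rescaling (0.25, adjusted p = 8.77e-04).

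The response to thapsigargin was compared directly between lines. Between GCN2-deletion and WT cells 1 of 46 genes had a higher and 1 a lower response, against 12.3% and 1.95% of all genes, and the median difference was -0.14 for the 46 genes and 0.13 for all genes. Psma5 responded lower by -0.33 ± 0.11 (SE, adjusted p = 0.0396) and Psmf1 higher by 0.32 ± 0.083 (adjusted p = 0.0124). Rescaling moved the all-gene median to -0.021 and the split to 0 higher and 9 lower of 46, with 7.64% and 6.5% of all genes. Psmf1 then had 0.13 (adjusted p = 0.303) and Psma5 -0.52 (adjusted p = 0.0256). With untreated cells in the place of DMSO 3 were higher and 23 lower, with 29.4% and 6.21% of all genes and medians of -0.22 for the 46 genes and 0.25 for all genes. The Psma5 call was lost when GCN2-deletion thapsigargin replicate 2, GCN2-deletion thapsigargin replicate 3, GCN2-deletion DMSO replicate 2, GCN2-deletion DMSO replicate 3, WT thapsigargin replicate 2, WT thapsigargin replicate 3, WT DMSO replicate 1 or WT DMSO replicate 3 was left out (highest adjusted p = 0.117), and the Psmf1 call when WT thapsigargin replicate 3 was left out (adjusted p = 0.0531).

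Between PERK-deletion and WT cells 0 of 46 responses to thapsigargin were higher and 2 lower, against 5.59% and 7.38% of all genes. Both were core chaperones. Psmg2 had 44.2, 47.5 and 44.7 TPM with thapsigargin and 52.7, 48.7 and 47.1 TPM with DMSO in PERK-deletion cells, against 45.5, 46.3 and 49.0 TPM with thapsigargin and 36.3, 43.6 and 38.5 TPM with DMSO in WT cells. Its response differed by -0.37 ± 0.10 (SE, adjusted p = 0.0143), and the call was lost when WT DMSO replicate 1 was left out (adjusted p = 0.0572). Psmg3 differed by -0.38 ± 0.12 (adjusted p = 0.0384), a call lost when PERK-deletion thapsigargin replicate 1, PERK-deletion thapsigargin replicate 2, PERK-deletion DMSO replicate 1, PERK-deletion DMSO replicate 2, PERK-deletion DMSO replicate 3, WT thapsigargin replicate 2, WT thapsigargin replicate 3, WT DMSO replicate 1 or WT DMSO replicate 3 was left out (highest adjusted p = 0.119) and on rescaling (adjusted p = 0.133). On rescaling 2 genes were higher and 1 lower, with 7.69% and 9% of all genes. Within WT cells, Psmg2 was also the 1 gene of 46 whose starvation response was below its thapsigargin response, against 6.17% of all genes, by -0.33 ± 0.10 (adjusted p = 0.0293). That call was lost when WT starved replicate 2, WT starved replicate 3, WT thapsigargin replicate 3, WT DMSO replicate 1, WT DMSO replicate 3 or WT untreated replicate 1 was left out (highest adjusted p = 0.103), and against the other control of each stress the value was 0.06.

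DMSO by itself gave no call. Against untreated cells limma called 0 of 46 genes in each line, where 0.242% of all genes were called in PERK-deletion, 0.149% in GCN2-deletion and 0.118% in WT cells. At an unadjusted p under 0.05 there were 7 of 46 (15.2%) in PERK-deletion, 2 (4.35%) in GCN2-deletion and 9 (19.6%) in WT cells, beside 8.79%, 7.93% and 14% of all genes in PERK-deletion, GCN2-deletion and WT cells. In WT cells 41 of the 46 values were positive, with a median of 0.085 for the 46 genes and -0.058 for all genes (0.16 and 0 on rescaling). In the WT line, leaving out 1 library gave up to 3 higher calls.

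More genes were called between lines than between treatments. In untreated cells 25 of 46 genes (54.3%) were higher and 8 (17.4%) lower in PERK-deletion than in WT cells, against 31.2% and 18.6% of all genes. The median difference was 0.17 for the 46 genes and 0.08 for all genes. Rescaling set the all-gene median to 0 and gave 14 higher and 11 lower of 46, with 25.8% and 25.6% of all genes and a member median of 0.06, so the excess of higher genes depends on the scale. The summed level was 9214 ± 124 TPM in untreated PERK-deletion cells and 7874 ± 498 TPM in untreated WT cells (mean ± SD, n = 3 each). The GCN2-deletion line had 9 higher and 13 lower, against 21.2% and 23.2% of all genes, with a median of -0.031 for the 46 genes and -0.047 for all genes. Rescaling gave 8 higher and 7 lower of 46, with 24.5% and 22.8% of all genes. The 13 lower include Psmb8 and Psmb9, which passed the filter through the other lines. Without the 3 inducible beta genes, 9 of 43 were higher and 10 lower on the deposited TPM.

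On the deposited TPM, core genes led the higher side in PERK-deletion cells. There 5 of 7 alpha and 6 of 7 constitutive beta genes were called higher, against 31.2% of all genes. Counts by role after rescaling are not given here. Psmb3, a structural beta subunit, had 473, 504 and 588 TPM in PERK-deletion and 294, 345 and 394 TPM in WT untreated cells (log2 change 0.60 ± 0.090 (SE), adjusted p = 2.44e-06). Psma3 had 251, 261 and 298 TPM in PERK-deletion and 189, 173 and 174 TPM in WT cells (log2 change 0.59 ± 0.060 (SE), adjusted p = 3.47e-09). The catalytic gene Psmb7 had 401, 418 and 420.5 TPM in PERK-deletion and 244, 293 and 305 TPM in WT cells (log2 change 0.56 ± 0.063 (SE), adjusted p = 1.94e-08). The groups were separate for all of these, and each remained called on rescaling, at 0.49, 0.48 and 0.45. Psma2 and Psmb2 were higher by 0.55 and 0.50. Psmb6 was higher by 0.37 (adjusted p = 8.05e-04; 0.104 on rescaling), while Psmb5 had 0.23 (95% interval 0.030 to 0.43, adjusted p = 0.0517).

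The regulatory particle was mixed. The ATPase Psmc1 showed the largest excess of all 46 genes, with 262, 270.3 and 259 TPM in PERK-deletion and 168, 173 and 173 TPM in WT cells (log2 change 0.62 ± 0.059 (SE), adjusted p = 7.81e-10; 0.51 on rescaling). Psmc3 was higher by 0.43, Psmc4 lower by 0.15, a call lost when WT untreated replicate 3 was left out (adjusted p = 0.119), and the non-ATPase genes Psmd11, Psmd4 and Psmd2 higher by 0.43, 0.39 and 0.34. The lid genes Psmd13, Psmd8 and Psmd14 were lower. Psmd13 had 104, 102 and 84.1 TPM in PERK-deletion and 112, 143 and 133 TPM in WT cells (log2 change -0.42 ± 0.077 (SE), adjusted p = 4.83e-05). Psmd8 differed by -0.25 (adjusted p = 8.04e-05), and Psmd14 by -0.19 (adjusted p = 0.0245), a call lost when PERK-deletion untreated replicate 3 or WT untreated replicate 2 was left out (highest adjusted p = 0.188). Among the chaperones, Psmg4 was higher by 0.55 (adjusted p = 2.87e-05) and Psmd5 by 0.32 (adjusted p = 2.80e-04), while Psmd9 was lower by 0.25 (adjusted p = 0.00934). On rescaling Psmd5 had adjusted p = 0.0656.

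**Figure D3:**
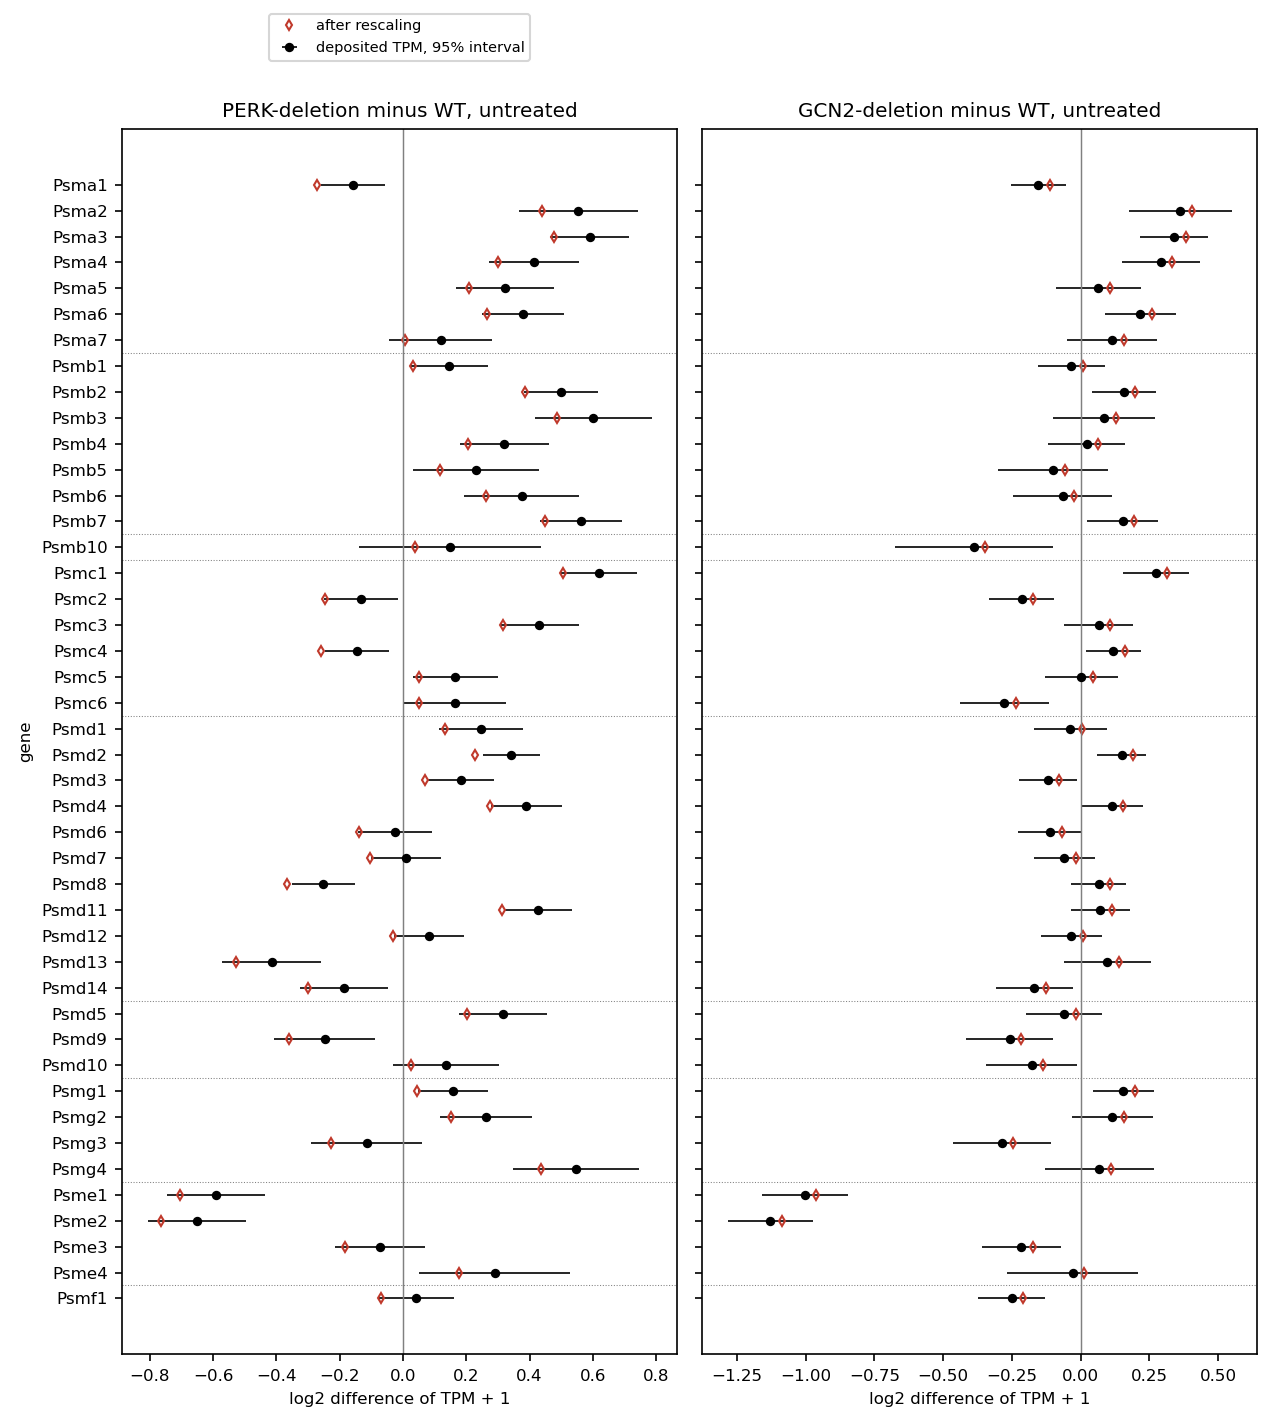
Log2 difference of TPM + 1 in untreated PERK-deletion against WT cells (left) and GCN2-deletion against WT cells (right) for 44 genes, grouped by role with dotted lines; black points with 95% intervals use the deposited TPM and open red diamonds the rescaled libraries, and Psmb8 and Psmb9, below 6 TPM, are not drawn. Rescaling shifts the left panel toward lower values and leaves the low positions of Psme1 and Psme2 in place.

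In the GCN2-deletion line the differences of constitutive core and regulatory genes were within 0.36 in size. The 4 largest of the 46 were those of Psmb8, Psme2, Psme1 and Psmb9, of which Psmb8 and Psmb9 passed the filter through the other lines. Psma2, Psma3 and Psma4 were higher by 0.36, 0.34 and 0.29, and Psmc1 by 0.27 (adjusted p = 3.35e-04). Psmc6 was lower by 0.28 (adjusted p = 0.00507; lost when WT untreated replicate 1 was left out (adjusted p = 0.0527)), as were Psmc2 by 0.21, the base chaperone Psmd9 by 0.26 and the core chaperone Psmg3 by 0.29, the last lost when WT untreated replicate 3 was left out (adjusted p = 0.0744). On rescaling Psmc2, Psmd9 and Psmg3 had adjusted p = 0.09795, 0.0841 and 0.101. Psmf1 had 31.7, 32.7 and 31.4 TPM in GCN2-deletion and 38.96, 38.3 and 37.2 TPM in WT untreated cells (log2 change -0.25 ± 0.059 (SE), adjusted p = 8.73e-04), a call that held throughout.

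Psme1, on chromosome 14, had 62.7, 66.3 and 56.6 TPM in untreated GCN2-deletion cells and 88.1, 83.7 and 76.02 TPM in untreated PERK-deletion cells, against 113, 126 and 137 TPM in untreated WT cells. Psme2, whose product assembles with that of Psme1, had 72.5, 84.6 and 80.7 TPM in GCN2-deletion and 111, 112 and 108 TPM in PERK-deletion cells, against 175, 157 and 192 TPM in WT cells. No library of either deletion line reached a WT library for either gene. Against WT, Psme1 had a log2 difference of -1.003 ± 0.076 (SE, adjusted p = 8.03e-12) in GCN2-deletion and -0.59 ± 0.076 (adjusted p = 1.97e-07) in PERK-deletion cells. Psme2 had -1.13 ± 0.076 (adjusted p = 6.25e-13) in GCN2-deletion and -0.65 ± 0.076 (adjusted p = 3.46e-08) in PERK-deletion cells. These 4 calls held under every alternative and without each library. The PA28 relative Psme3 differed by -0.22 (adjusted p = 0.0125) in GCN2-deletion cells, a call lost when WT untreated replicate 2 was left out (adjusted p = 0.126), and had -0.072 in PERK-deletion cells. Psme4 had -0.028 in GCN2-deletion and 0.29 in PERK-deletion cells, the PERK-deletion call (adjusted p = 0.0396) being lost when PERK-deletion untreated replicate 1, PERK-deletion untreated replicate 2 or WT untreated replicate 3 was left out (highest adjusted p = 0.3799).

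Psmb8, the inducible counterpart of Psmb5, had 1.06, 0.5299 and 0.853 TPM in untreated GCN2-deletion cells, against 4.66, 4.33 and 5.66 TPM in WT cells (log2 change -1.70 ± 0.16 (SE)). The filter level of 1 TPM was reached in 1 of 12 GCN2-deletion, 12 of 12 PERK-deletion and 12 of 12 WT libraries, so Psmb8 entered the test through the lines in which it was higher. In PERK-deletion cells it had 3.43, 4.09 and 3.62 TPM, with a difference from WT of -0.32 (95% interval -0.65 to 0.014). Psmb9 had 0.125, 0.211 and 0.151 TPM in GCN2-deletion cells, against 0.575, 0.601 and 1.32 TPM in WT cells (log2 change -0.63 ± 0.19 (SE)), a call that was lost when WT untreated replicate 3 was left out. Psmb9 likewise passed the filter through the other lines, with 0 of 12 GCN2-deletion, 8 of 12 PERK-deletion and 3 of 12 WT libraries at 1 TPM or more. The low values of both genes in GCN2-deletion cells are therefore a description, and no p-value is given for them. In PERK-deletion cells Psmb9 had 1.58, 1.78 and 1.44 TPM and was called higher by 0.53 (adjusted p = 0.0249), which was lost on rescaling (adjusted p = 0.0588) and when PERK-deletion untreated replicate 1, PERK-deletion untreated replicate 2, WT untreated replicate 1 or WT untreated replicate 2 was left out (highest adjusted p = 0.103). Psmb10 had 43.3, 43.8 and 37.3 TPM in GCN2-deletion cells, against 46.6, 54.5 and 63.6 TPM in WT cells (log2 change -0.39 ± 0.14 (SE), adjusted p = 0.0255), lost on rescaling (adjusted p = 0.116) and when GCN2-deletion untreated replicate 3, WT untreated replicate 2 or WT untreated replicate 3 was left out (highest adjusted p = 0.136). Changes of genes near 1 TPM are understated by the added pseudocount of 1. Psmb8 and Psmb9 lie 9.9 kb apart on chromosome 17, with Tap1 and Tap2, the peptide transporter genes, beside them. Psmb9 overlaps Tap1 on the opposite strand in the annotation, and whether strand was used in quantification is not given in the sources used here, so their reads may be shared.

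**Figure D4:**
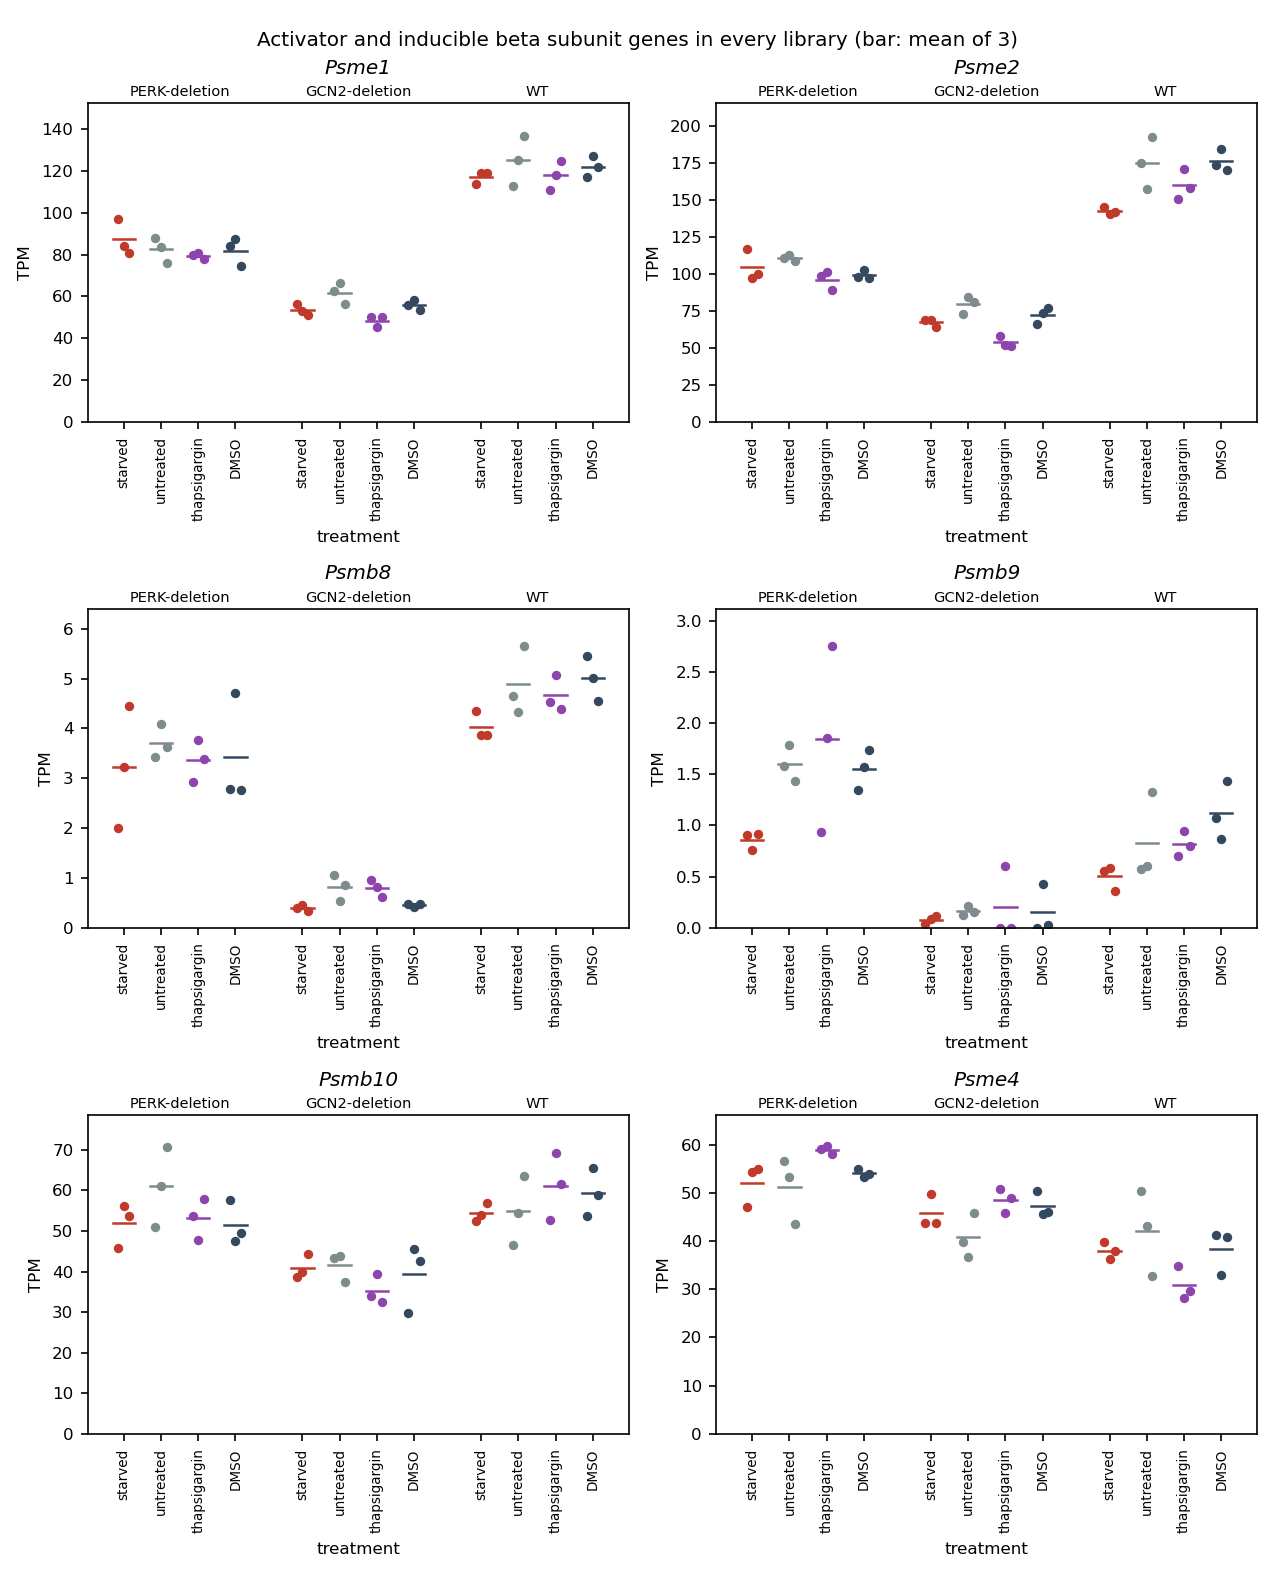
TPM of Psme1, Psme2, Psmb8, Psmb9, Psmb10 and Psme4 in each of the 36 libraries (points), by line and treatment, with a bar at the mean of 3. Psme1, Psme2 and Psmb8 sit lowest in the GCN2-deletion line under all 4 treatments, whereas Psme4 does not.

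Other interferon-responsive and antigen presentation genes were also lower in that line: 12 of the 14 tested were lower and 0 higher in untreated GCN2-deletion cells, with a median of -1.11, against 23.2% and 21.2% of all genes. Isg15, a ubiquitin-like modifier, had 3.74, 2.72 and 4.03 TPM in GCN2-deletion cells, against 24.8, 21.5 and 26.2 TPM in WT cells (log2 change -2.49 ± 0.22 (SE), adjusted p = 2.83e-10). Tap2 had 1.81, 2.74 and 2.42 TPM in GCN2-deletion cells, against 12.1, 9.57 and 12.3 TPM in WT cells (log2 change -1.89 ± 0.16 (SE), adjusted p = 7.08e-11). In PERK-deletion cells 5 of the 14 were lower and 2 higher, against 18.6% and 31.2% of all genes, with a median of -0.30 for the 14 and 0.08 for all genes. The 14 genes are no independent check, since their choice followed earlier results of these data. Nlrc5, Irf7 and Ifit1 lay near the filter of 1 TPM, with medians of 0.866, 1.10 and 1.19 TPM over 36 libraries. Such genes may have entered the test through lines in which they were higher, as Psmb8 did. Which lines carried them through the filter was not examined. Leukocyte markers summed to 4.802 to 7.16 TPM in GCN2-deletion, 4.55 to 5.601 TPM in PERK-deletion and 5.69 to 10.8 TPM in WT untreated libraries, with Ptprc at or below 0.198 TPM throughout.

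Promoters, from 250 bases before to 50 after the annotated start, were read from RefSeq tables of GRCm38.p6 for 40 of the 48 genes. They were searched on both strands for the letters TGACNNNGC (the core of an antioxidant response element), GAAA, any 2 bases and GAAA (an interferon-stimulated response element) and CCAAT. The antioxidant letters were found in 6 of 40 genes (15%) and in 14% of the 27025 genes of the table, CCAAT in 14 (35%) and in 41.1%, and the interferon letters in 5 (12.5%) and in 3.99%. Shown are the promoters of the PA28 pair that was low in both deletion lines, and of Psme3, which rose with starvation in all 3 lines. Also shown is that of Psmd5, which rose with thapsigargin in all 3 lines. Those of the catalytic genes Psmb5 and Psmb6, which hold the antioxidant letters, are included too. Matches are in capitals: an interferon match in Psme1, starting 10 bases after the start on the minus strand of the promoter, a CCAAT match on that strand 14 bases before the start in Psme3, and antioxidant matches 47 bases before the start in Psmb5 and 9 before it in Psmb6. The interferon letters were also in the promoters of Psmb3, Psmd4, Psmd9 and Psmg4, and in 0 of the 3 inducible beta genes. A match is a description of letters, not a site.
Psme1 (chr14:55578244-55578543, plus strand): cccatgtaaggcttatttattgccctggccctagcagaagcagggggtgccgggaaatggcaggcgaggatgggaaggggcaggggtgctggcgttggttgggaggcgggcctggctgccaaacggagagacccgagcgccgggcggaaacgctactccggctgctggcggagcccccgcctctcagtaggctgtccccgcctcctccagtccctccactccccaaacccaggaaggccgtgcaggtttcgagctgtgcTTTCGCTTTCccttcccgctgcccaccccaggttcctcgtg
Psme2 (chr14:55591052-55591351, minus strand): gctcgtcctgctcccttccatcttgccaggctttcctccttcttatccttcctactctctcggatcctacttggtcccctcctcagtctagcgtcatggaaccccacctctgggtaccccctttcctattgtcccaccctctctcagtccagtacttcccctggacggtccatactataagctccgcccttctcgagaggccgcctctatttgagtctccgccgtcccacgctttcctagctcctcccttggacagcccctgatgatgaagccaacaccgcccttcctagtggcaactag
Psme3 (chr11:101315963-101316262, plus strand): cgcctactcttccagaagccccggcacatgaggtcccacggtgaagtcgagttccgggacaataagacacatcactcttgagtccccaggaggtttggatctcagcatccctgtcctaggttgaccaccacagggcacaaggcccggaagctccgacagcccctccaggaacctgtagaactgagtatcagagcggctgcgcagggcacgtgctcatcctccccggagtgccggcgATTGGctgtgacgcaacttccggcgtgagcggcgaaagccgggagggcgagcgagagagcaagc
Psmd5 (chr2:34870913-34871212, minus strand): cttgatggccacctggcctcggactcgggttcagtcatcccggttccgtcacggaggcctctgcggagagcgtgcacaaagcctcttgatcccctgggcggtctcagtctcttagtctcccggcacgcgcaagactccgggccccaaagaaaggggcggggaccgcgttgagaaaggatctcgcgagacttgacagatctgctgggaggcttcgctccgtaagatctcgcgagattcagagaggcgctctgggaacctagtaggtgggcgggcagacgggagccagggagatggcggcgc
Psmb5 (chr14:54617946-54618245, minus strand): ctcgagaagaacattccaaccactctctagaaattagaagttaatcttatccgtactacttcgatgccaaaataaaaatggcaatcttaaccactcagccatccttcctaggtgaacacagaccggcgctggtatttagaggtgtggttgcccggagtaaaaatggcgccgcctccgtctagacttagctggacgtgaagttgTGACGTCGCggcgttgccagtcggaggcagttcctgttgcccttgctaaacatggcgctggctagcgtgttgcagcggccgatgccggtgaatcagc
Psmb6 (chr11:70525107-70525406, plus strand): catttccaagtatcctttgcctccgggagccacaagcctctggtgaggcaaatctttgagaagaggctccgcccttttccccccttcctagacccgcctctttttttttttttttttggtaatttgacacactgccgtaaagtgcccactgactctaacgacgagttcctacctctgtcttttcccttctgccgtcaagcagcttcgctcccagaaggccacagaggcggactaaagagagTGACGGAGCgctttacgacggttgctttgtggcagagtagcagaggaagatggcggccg

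Nfe2l1, the gene of the activator NRF1, rose with both stresses in WT cells and with thapsigargin in GCN2-deletion cells. Nfe2l1 had 244, 255 and 264 TPM in starved WT cells, against 124, 149.6 and 104 TPM in untreated ones (log2 change 1.03 ± 0.12 (SE), adjusted p = 7.76e-08). With thapsigargin it had 313, 276 and 251 TPM in WT cells, against 138, 121 and 125 TPM with DMSO (log2 change 1.12 ± 0.12 (SE), adjusted p = 1.70e-08). Starved cells of the deletion lines did not follow: Nfe2l1 had 108, 148 and 148 TPM starved and 146, 141 and 126 TPM untreated in PERK-deletion cells, and 126, 129 and 116 TPM starved and 137, 105 and 141 TPM untreated in GCN2-deletion cells. The starvation response was lower than in WT by 1.07 (adjusted p = 3.80e-05) in PERK-deletion and by 1.06 (adjusted p = 4.28e-05) in GCN2-deletion cells. With thapsigargin Nfe2l1 rose in GCN2-deletion cells, to 232, 226 and 241 TPM, against 119, 133 and 116 TPM with DMSO (log2 change 0.92 ± 0.12 (SE), adjusted p = 3.66e-07), and had 185, 179 and 182 TPM, against 147, 153 and 139.9 TPM with DMSO, in PERK-deletion cells (log2 change 0.31 ± 0.12 (SE), adjusted p = 0.145). The thapsigargin response was lower in PERK-deletion than in WT cells by 0.81 (adjusted p = 9.95e-04).

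The summed proteasome level overlapped between stressed and control libraries in every line. In WT cells it was 7987 ± 42.2 TPM starved and 7874 ± 498 TPM untreated, and 8558 ± 283 TPM with thapsigargin and 8365 ± 229.7 TPM with DMSO (mean ± SD, n = 3 each). In GCN2-deletion cells it was 7378 ± 258 TPM with thapsigargin and 7899 ± 455 TPM with DMSO. The overlap there rests on DMSO replicate 1, with 7373 TPM. DMSO replicates 2 and 3 had 8178 and 8145 TPM, above the 7089 to 7586 TPM with thapsigargin. In PERK-deletion cells the summed level was 9469 ± 46.5 TPM with thapsigargin and 9337 ± 330.1 TPM with DMSO. With starvation it was 9261 ± 446 TPM starved and 9214 ± 124 TPM untreated in the PERK-deletion line, and 7916 ± 9.61 TPM starved and 7867 ± 314 TPM untreated in the GCN2-deletion line. These are RNA levels at a single time, and NRF1 protein was not measured.

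Pomp, the maturation factor of the core particle, fell with thapsigargin in the GCN2-deletion and WT lines. It had 147, 151 and 132 TPM with thapsigargin, against 218, 239 and 268 TPM with DMSO, in GCN2-deletion cells (log2 change -0.75 ± 0.077 (SE), adjusted p = 1.06e-08). In WT cells Pomp had 225, 232 and 209 TPM with thapsigargin, against 302, 306 and 301 TPM with DMSO (log2 change -0.45 ± 0.077 (SE), adjusted p = 5.22e-05). In PERK-deletion cells the groups overlapped, with 241, 206 and 241 TPM with thapsigargin and 237, 221 and 210.3 TPM with DMSO, and the response exceeded that of WT by 0.49 (adjusted p = 0.00241; range of the alternatives up to 0.0555).

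**Figure D5:**
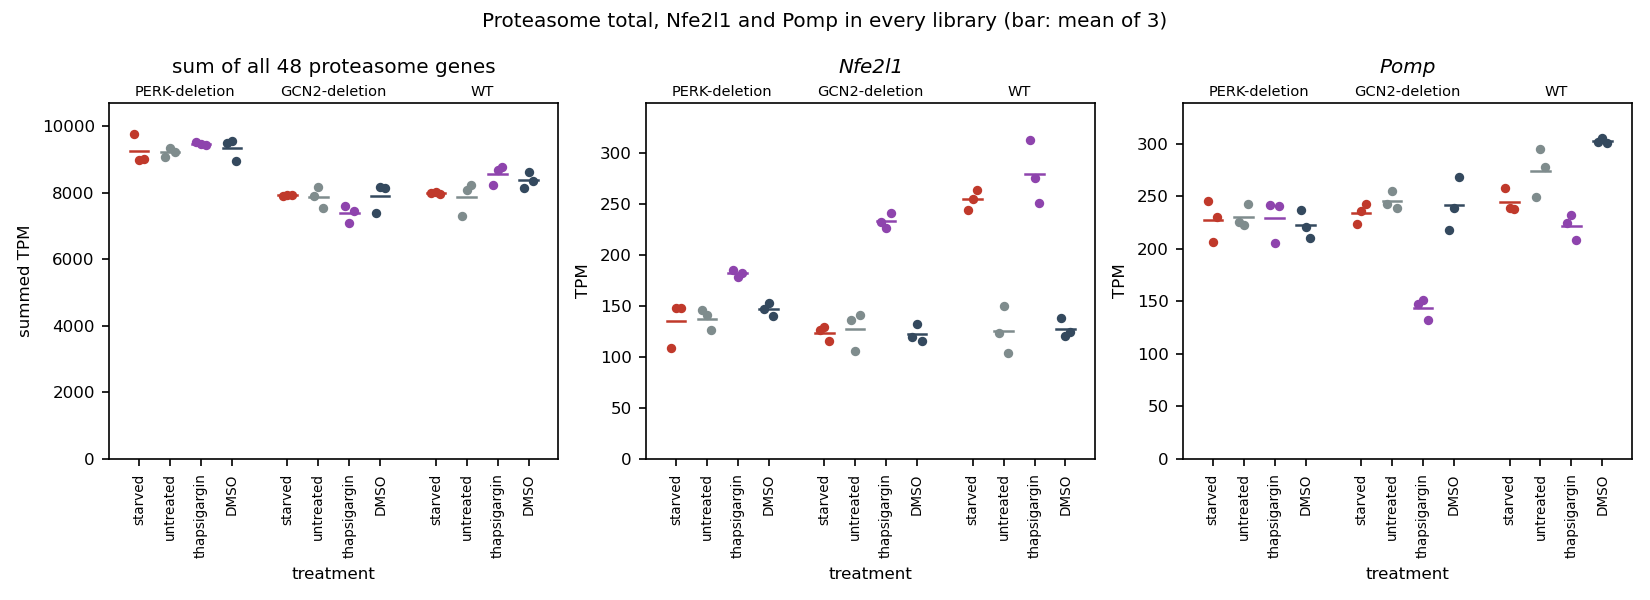
Summed TPM of the 48 proteasome genes and TPM of Nfe2l1 and Pomp in each of the 36 libraries (points), by line and treatment, with a bar at the mean of 3. The sum lies between 7089 and 9776 TPM in all libraries, while Nfe2l1 is higher in both stressed WT groups than in their controls and Pomp is lower with thapsigargin than with DMSO in the GCN2-deletion and WT lines.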

How the data were processed

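RNA of 36 libraries in 12 groups of 3 was quantified by the authors, and the deposited table gives TPM per gene symbol. The submitters' processing notes name FastQC, kallisto and mm10, with no versions. Column totals ran from 999999.83 to 1000000.09, and TPM keeps no read depth. The number of per-sample columns left unused was 0. From these values, log2(TPM + 1) was fitted over all 12 groups with limma 3.58.1 in R 4.3.3 (moderated variances with a trend, 24 residual degrees of freedom) for the 16083 genes that reached 1 TPM in 3 libraries or more. Each adjusted p is limma's adjusted by Benjamini-Hochberg over the 16083 genes of a comparison, and 16 comparisons were made. The script was tested on simulated data. The members and all gene lists were chosen with earlier results of these data known. Named were the catalytic, inducible, activator, inhibitor, testis and thymus genes, and in each comparison and role up to 3 genes called in each direction with the largest change. Rescaling divided each library by the median of its gene ratios to the geometric mean. Alternatives were that rescaling, a pseudocount of 0.1, no filter or one of 5 TPM, no variance trend, fits on the compared groups alone, the replicate number as a block, the other control, and each library left out; TPM rescaled over protein-coding genes was added after seeing the data. Loci are GENCODE M21 on GRCm38, and promoters RefSeq on GRCm38.p6. Figures used matplotlib 3.10.9 in Python 3.11.15. A comparison of subunit proteins was not analysed here. Some genes of the related lists are not reported here and were left out of the list counts.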

Additional observations from a re-analysis of the deposited data

Results flagged for a closer look

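Each gene here had a stress response that differed between lines, or between stresses in WT cells, by limma's test of the difference itself (interaction term, adjusted p under 0.05). Values are differences of log2 changes, deletion line minus WT or starvation minus thapsigargin. Each was refitted under 21 alternatives, 12 of which leave out a library, and a gene has the number in which its call was lost beside it where that is above 3. The response to starvation was compared between PERK-deletion and WT cells. The response was higher for Stat2 (1.45), Keap1 (0.48), Irf1 (0.42) and Vcp (0.39). It was lower for Cxcl10 (-1.22), Nfe2l1 (-1.07), Nfe2l2 (-0.77) and Ngly1 (-0.71). The same was done for GCN2-deletion against WT cells. The response was higher for Stat2 (0.71, lost in 11) and Keap1 (0.23, lost in 15). It was lower for Nfe2l1 (-1.06), Nfe2l2 (-0.79), Psmg2 (-0.33, lost in 12) and Psmg1 (-0.24, lost in 15). For the response to thapsigargin, PERK-deletion cells were set against WT cells. The response was higher for Stat2 (0.72, lost in 7), Bach1 (0.66), Pomp (0.49), Irf1 (0.34) and Vcp (0.26). It was lower for Cxcl10 (-0.99), Nfe2l1 (-0.81), Maff (-0.57), Nfe2l2 (-0.46), Psmg3 (-0.38, lost in 11), Psmg2 (-0.37) and Adrm1 (-0.34). GCN2-deletion cells were set against WT cells for thapsigargin as well. The response was higher for Bach1 (0.70), Zfand2a (0.66), Maff (0.55), Irf1 (0.47), Psmf1 (0.32), Akirin2 (0.26, lost in 16) and Keap1 (0.24, lost in 8). It was lower for Psma5 (-0.33, lost in 10) and B2m (-0.24). Within WT cells the response to starvation was set against that to thapsigargin. The response was higher for Irf1 (0.30, lost in 12) and Psmd8 (0.29). It was lower for Stat2 (-1.40), Tap1 (-0.75), Irf9 (-0.64, lost in 6), Keap1 (-0.39), Ufd1 (-0.36) and Psmg2 (-0.33, lost in 9).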

How the results depend on the processing

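All alternatives were run, and counts are of the 46 genes. Shares of all genes are given for rescaling, mostly in the Results, and for the exchanged controls. Counts under the other settings have no such share beside them. Over all tests of single genes, the other control was the one setting that turned the direction of a value called under either choice. Rescaling gave 14 higher (25 in the report) for untreated PERK-deletion against WT cells, 7 lower (13) for GCN2-deletion against WT, 1 lower (4) for starvation and 2 higher (4) for thapsigargin in GCN2-deletion cells, 0 lower (3) for starvation and 1 lower (0) for thapsigargin in WT cells. For differences of responses from WT it gave 0 higher (1) and 9 lower (1) for thapsigargin in GCN2-deletion, 2 higher (0) and 1 lower (2) for thapsigargin in PERK-deletion, 1 lower (2) for starvation in GCN2-deletion cells, and 0 higher (1) for starvation against thapsigargin in WT cells. Of all genes, 5.98% were lower in that starvation difference and 8.93% higher between the stresses.

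Fitting the compared groups alone, with fewer residual degrees of freedom, gave 15 higher (25) and 3 lower (8) for PERK-deletion and 2 higher (9) and 7 lower (13) for GCN2-deletion against WT cells, 0 higher (2) for starvation in PERK-deletion, 2 lower (4) in GCN2-deletion, and 1 higher (4) and 0 lower (3) in WT cells, and 1 lower (0) for thapsigargin in WT cells. The response differences became 1 lower (2) for starvation and 0 higher and 0 lower (1 each) for thapsigargin in GCN2-deletion, 1 higher (0) for thapsigargin in PERK-deletion, and 0 lower (1) between stresses in WT cells. Exchanging the controls gave, for starvation, 1 higher (2) in PERK-deletion, 2 higher (6) and 1 lower (4) in GCN2-deletion and 7 lower (3) in WT cells. Of all genes 4.27% were then higher in PERK-deletion, 8.17% higher and 10.3% lower in GCN2-deletion and 11.6% lower in WT cells. For thapsigargin the exchange gave 4 higher (2) and 1 lower (0) in PERK-deletion and 13 higher (6) and 1 lower (0) in WT cells. Of all genes 4.44% were higher and 5.14% lower in PERK-deletion, and 12.2% and 25.1% in WT cells. Response differences then were 1 higher (0) for starvation in PERK-deletion, 1 lower (2) in GCN2-deletion, 3 higher (1) and 23 lower (1) for thapsigargin in GCN2-deletion, 3 higher (0) and 4 lower (2) in PERK-deletion, and 0 higher (1) and 12 lower (1) between stresses in WT cells. Of all genes, starvation differences were 3.27% higher in PERK-deletion and 4.64% lower in GCN2-deletion. Thapsigargin differences were 29.4% higher and 6.21% lower in GCN2-deletion, and 12.6% and 7.54% in PERK-deletion. Between stresses 15.1% were higher and 6.39% lower. The exchange also turned 7 single values: Adrm1 (starvation, PERK-deletion) to -0.023, Nploc4 (starvation, GCN2-deletion) to -0.047, Psmb1 (PERK-deletion against WT) to -0.00828, Psme4 (GCN2-deletion against WT) to 0.30, and, between stresses in WT cells, Psmb3 to -0.42, Psmb7 to -0.27 and Psmg2 to 0.057. The cause was not tested.

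Without a filter, lower counts were 2 (4) for starvation in GCN2-deletion, and 0 (2) for its response difference from WT, 0 (1) and 1 (2) for the thapsigargin differences of GCN2-deletion and PERK-deletion from WT, and 0 (1) between stresses in WT cells. A filter of 5 TPM gave 1 lower (0) for thapsigargin in WT cells. A pseudocount of 0.1 gave 1 (2), and no trend 0 (2), lower starvation responses in GCN2-deletion against WT cells. Over protein-coding genes there were 5 higher (2) for starvation in PERK-deletion, 2 lower (0) for thapsigargin in WT cells, 2 higher responses (0) for starvation in PERK-deletion, 2 (1) for thapsigargin in GCN2-deletion, and 3 lower (1) between stresses in WT cells.

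The replicate block gave 1 lower (2) starvation response in GCN2-deletion against WT cells and changed no other count by over 1.5 times. Same-numbered libraries correlated between -0.18 and 0.16 in their deviations from the group means. With 3 libraries a group, this cannot tell whether libraries of the same number shared a culture or a preparation.

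Leaving out 1 library gave, for untreated lines, 20 to 26 higher and 7 to 10 lower in PERK-deletion and 5 to 11 and 10 to 12 in GCN2-deletion against WT cells. Starvation gave 0 to 3 higher and 0 to 2 lower in PERK-deletion, 3 to 6 and 1 to 3 in GCN2-deletion and 2 to 5 and 1 to 4 in WT cells. Thapsigargin gave 1 to 2 higher and 0 to 0 lower in PERK-deletion, 4 to 5 and 9 to 17 in GCN2-deletion and 3 to 7 and 0 to 1 in WT cells. DMSO gave 0 to 3 higher in WT cells. Responses to starvation gave 0 to 2 higher and 0 to 2 lower in GCN2-deletion against WT cells. Those to thapsigargin gave 0 to 1 higher and 0 to 3 lower in PERK-deletion and 0 to 2 and 0 to 6 in GCN2-deletion against WT cells, and 1 to 2 and 0 to 2 differed between stresses in WT cells.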

Other observations

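Of all genes tested, thapsigargin gave 2.5% higher and 2.8% lower in PERK-deletion, 25.4% and 11.3% in GCN2-deletion and 11.4% and 14.8% in WT cells, and starvation 5.75% and 6.39% in PERK-deletion, 11.7% and 12.2% in GCN2-deletion and 12.5% and 17.4% in WT cells. The NRF1 list has 9 tested genes: Nfe2l1, the related Nfe2l2, the NRF1-processing Ddi2 and Ngly1, the small MAF genes Maff, Mafg and Mafk, the repressor gene Bach1, and Keap1, which restrains NRF2. Of these 9, thapsigargin gave 0 higher and 0 lower in PERK-deletion, 7 higher and 0 lower in GCN2-deletion and 5 higher and 2 lower in WT cells, and starvation 1 higher and 1 lower in PERK-deletion, 4 higher and 1 lower in GCN2-deletion and 6 higher and 1 lower in WT cells. Nfe2l2, which encodes the related factor NRF2, had 114, 113 and 113 TPM in starved WT cells, against 78.2, 74.1 and 67.6 TPM in untreated ones (log2 change 0.62 ± 0.069 (SE), adjusted p = 4.49e-08). Its starvation response was lower by 0.77 (adjusted p = 2.20e-06) in PERK-deletion and by 0.79 (adjusted p = 1.30e-06) in GCN2-deletion cells. Maff, a small MAF partner of both factors, had 45.8, 43.3 and 44.7 TPM with thapsigargin, against 20.7, 22.6 and 22.4 TPM with DMSO, in GCN2-deletion cells (log2 change 0.99 ± 0.072 (SE), adjusted p = 1.29e-11).

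Of 18 tested partners of the proteasome (shuttle factors, deubiquitinases, VCP cofactors and maturation factors), thapsigargin gave 1 higher and 0 lower in PERK-deletion, 8 higher and 2 lower in GCN2-deletion and 4 higher and 1 lower in WT cells. The shares of all genes were 2.5% and 2.8%, 25.4% and 11.3%, and 11.4% and 14.8%. Starvation gave 1 higher and 0 lower in PERK-deletion, 7 higher and 0 lower in GCN2-deletion and 1 higher and 1 lower in WT cells. Here the shares of all genes were 5.75% and 6.39%, 11.7% and 12.2%, and 12.5% and 17.4%. In untreated cells 9 of the 18 were higher and 1 lower in PERK-deletion than in WT cells, with a median of 0.19, beside 31.2% and 18.6% of all genes. Of 5 ubiquitin genes and activating enzymes, thapsigargin gave 1 higher and 0 lower in PERK-deletion, 1 higher and 0 lower in GCN2-deletion and 0 higher and 1 lower in WT cells. Beside these, 2.5% and 2.8%, 25.4% and 11.3%, and 11.4% and 14.8% of all genes were higher and lower. Of the 14 interferon and antigen presentation genes, starvation gave 1 higher and 3 lower in PERK-deletion, 1 higher and 7 lower in GCN2-deletion and 1 higher and 8 lower in WT cells. Of all genes, 5.75% were higher and 6.39% lower in PERK-deletion, 11.7% and 12.2% in GCN2-deletion and 12.5% and 17.4% in WT cells. Stat2, a mediator of interferon signals, had 3.86, 4.44 and 5.37 TPM in starved WT cells, against 27.2, 17.3 and 15.1 TPM in untreated WT cells (log2 change -1.87 ± 0.15 (SE), adjusted p = 1.81e-10).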
